A study of Mus musculus with 5 samples.

Results

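The cytochrome P450 (Cyp), glutathione S-transferase (Gst and Mgst) and UDP-glucuronosyltransferase (Ugt) genes were followed in bulk RNA sequencing of mouse kidneys at embryonic day 15.5. The table held 138 gene symbols of these families, and 61 of them were selected on their level, a count of at least 10 in at least 2 of the 5 libraries: 30 of 94 Cyp genes, 21 of 25 Gst and Mgst genes and 10 of 19 Ugt genes. The same count level was reached by 15955 of all 32793 genes. It was set over all libraries together and used no contrast between the groups. Of the 77 symbols left out, 41 had no count in any library.

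NICD_mut kidneys (2 libraries) carried the Six2TGC/+ Cre driver, which is active in nephron progenitors, and the RosaN1ICD∆PEST allele, which after Cre recombination makes an activated Notch1 without a PEST domain. NICD_wt kidneys (3 libraries) came from littermates that had the RosaN1ICD∆PEST allele and no Cre. The driver was present in every NICD_mut library and in no NICD_wt library, so its effects and those of activated Notch1 cannot be told apart. Nothing in the labels ties the libraries to separate animals, and p-values therefore reflect only variation among these samples, possibly technical. In whole-organ RNA, fewer cells of a type and less RNA per cell cannot be told apart either.

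P450 enzymes are haem proteins that oxidise drugs, toxins, fatty acids, sterols and vitamins. Glutathione S-transferases join glutathione to reactive compounds, and UDP-glucuronosyltransferases join glucuronic acid to them, so that the products can be carried out of the cell. In the adult kidney the proximal tubule is the main site of this chemistry, and it also holds the final step of vitamin D activation.

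Many of these genes lie in clusters of close relatives, and neighbours did not always behave alike. The promoters of 6 members are shown. They set members of the same cluster side by side (Gstm1 and Gstm4, Ugt1a2 and Ugt1a10) or belong to members with some of the highest fold changes of their family (Cyp1b1, Ugt2b34). Each runs from 250 bases before to 50 bases after the first start listed in RefSeq (GRCm38.p6), 5′ to 3′ on the gene's strand. Gstm1 and Gstm4 each have 2 listed starts. Capitals mark any match, on either strand, to TGGGAA (the core bound by RBPJ, the DNA-binding partner of activated Notch), GCGTG (the aryl hydrocarbon receptor core), TGACNNNGC (the antioxidant response element bound by Nrf2) or CAAAGTCCA (an HNF4 site). None of these motifs contains another.
Cyp1b1, chr17:79715012-79715311, minus strand: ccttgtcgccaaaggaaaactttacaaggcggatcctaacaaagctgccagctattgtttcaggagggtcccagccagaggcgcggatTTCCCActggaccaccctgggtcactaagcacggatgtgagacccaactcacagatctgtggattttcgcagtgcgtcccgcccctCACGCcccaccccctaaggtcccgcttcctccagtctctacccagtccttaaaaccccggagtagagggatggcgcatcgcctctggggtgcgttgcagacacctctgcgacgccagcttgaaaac
Gstm1, chr3:108017924-108018223, minus strand: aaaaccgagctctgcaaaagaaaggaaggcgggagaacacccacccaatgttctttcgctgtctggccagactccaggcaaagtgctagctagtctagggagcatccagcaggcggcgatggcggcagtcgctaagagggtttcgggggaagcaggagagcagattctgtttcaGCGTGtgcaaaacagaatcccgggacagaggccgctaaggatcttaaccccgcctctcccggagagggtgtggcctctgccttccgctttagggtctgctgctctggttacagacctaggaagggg
Gstm4, chr3:108044810-108045109, minus strand: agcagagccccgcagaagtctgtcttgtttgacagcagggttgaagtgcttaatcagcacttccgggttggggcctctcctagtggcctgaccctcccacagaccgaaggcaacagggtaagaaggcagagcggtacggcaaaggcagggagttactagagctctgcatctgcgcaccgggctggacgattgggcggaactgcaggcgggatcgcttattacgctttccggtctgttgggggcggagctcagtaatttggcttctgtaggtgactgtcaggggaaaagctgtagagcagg
Ugt1a2, chr1:88200361-88200660, plus strand: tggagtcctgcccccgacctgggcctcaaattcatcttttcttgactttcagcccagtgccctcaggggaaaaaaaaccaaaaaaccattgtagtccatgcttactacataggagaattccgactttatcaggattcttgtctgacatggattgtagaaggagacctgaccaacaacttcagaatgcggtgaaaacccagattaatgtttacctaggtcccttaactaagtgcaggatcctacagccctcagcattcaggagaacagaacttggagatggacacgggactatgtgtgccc
Ugt1a10, chr1:88055161-88055460, plus strand: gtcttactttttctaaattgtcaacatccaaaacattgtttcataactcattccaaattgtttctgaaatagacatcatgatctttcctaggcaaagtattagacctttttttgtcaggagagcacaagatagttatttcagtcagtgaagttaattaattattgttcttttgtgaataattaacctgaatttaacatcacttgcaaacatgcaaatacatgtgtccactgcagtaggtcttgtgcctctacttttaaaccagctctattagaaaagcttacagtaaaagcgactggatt
Ugt2b34, chr5:86906888-86907187, minus strand: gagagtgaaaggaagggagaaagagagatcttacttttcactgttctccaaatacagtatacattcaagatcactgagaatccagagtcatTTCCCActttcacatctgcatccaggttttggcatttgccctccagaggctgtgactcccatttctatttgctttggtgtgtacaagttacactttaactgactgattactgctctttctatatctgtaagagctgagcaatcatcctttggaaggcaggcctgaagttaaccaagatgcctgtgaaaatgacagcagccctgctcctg

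The Cyp1b1 and Ugt2b34 windows each held an RBPJ core on the minus strand (printed as TTCCCA), and Cyp1b1 also held GCGTG on that strand (printed as CACGC). Gstm1 held GCGTG on the plus strand. Gstm4, Ugt1a2 and Ugt1a10 held none of the motifs. Promoters were matched for 50 of the 61 members. TGGGAA was present in 15 of the 50 (30.0%), against 25.5% of all 27025 promoters in the table. TGGGAA was found in 12 of the 25 matched members that were higher in NICD_mut kidneys and in 3 of the other 25, a split made after the fold changes were known and given as a description. The 12 are not independent, as Cyp2j5, Cyp2j6, Cyp2j11 and Cyp2j13 are close relatives in a cluster, and so are Ugt2b34, Ugt2b37 and Ugt2b38. The share among all genes called higher was not computed, so the split cannot be set against it. The same split gave 7 and 7 for GCGTG, 2 and 3 for TGACNNNGC and 0 and 0 for CAAAGTCCA. GCGTG was present in 14 of 50 against 32.5% of all promoters, TGACNNNGC in 5 against 12.5% and CAAAGTCCA in 0 against 0.477%.

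Libraries held 17361823 to 21356447 counts and 18253 to 19152 genes with a count. Notch1 stood at 53.8 and 57.5 TPM (transcript level scaled for length and depth) in NICD_mut, against 21.3, 23.5 and 20.1 TPM in NICD_wt. Six2, the progenitor gene whose control elements drive the Cre, was at 7 and 6 counts in NICD_mut, against 2667, 3015 and 2411 counts in NICD_wt. All 8 kidney marker genes were detected in every library, and 2 were higher and 4 lower in NICD_mut. Over all tested genes the shares were 23.0% higher and 24.8% lower. Skeletal muscle transcripts set NICD_mut 1 apart: 8 muscle genes summed to 4045 TPM there and to 27.4 TPM in NICD_mut 2, against 170, 9.05 and 7.87 TPM in NICD_wt. None of the 8 was called between the groups. The 8 stroma markers were also uneven, at 4532 and 2187 TPM in NICD_mut, against 1427, 1367 and 1201 TPM in NICD_wt, with 3 called higher.

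NICD_mut kidneys had more transcript of these families in all. The summed TPM over the 138 symbols was 2844 and 2631 in NICD_mut, against 1522, 1604 and 1426 in NICD_wt, or 2738 ± 150.2 against 1517 ± 89.5 (SD, n = 2 and 3), 1.80 times as much. Ugt genes had the highest ratio, with 317 and 321 TPM in NICD_mut, against 75.5, 72.4 and 75.1 TPM in NICD_wt (4.29 times). Cyp genes summed to 474 and 487 TPM in NICD_mut, against 189, 213 and 198 TPM in NICD_wt (2.40 times). Gst and Mgst genes, the most abundant family, summed to 2053 and 1823 TPM in NICD_mut, against 1258, 1319 and 1152 TPM in NICD_wt (1.56 times). The 2 groups did not overlap in any of these sums, which are given as a description. The ratios depend on the unit. From counts scaled for depth and not for length, they were 2.13 over the 138 symbols, 3.78 for Ugt, 2.45 for Cyp and 1.62 for Gst and Mgst genes.

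Gene by gene, 29 of the 61 members were higher in NICD_mut, 4 were lower and 28 did not pass the test, which was edgeR's quasi-likelihood test on counts with a Benjamini-Hochberg adjusted p of at most 0.05 over all 15885 genes tested. Higher calls made up 47.5% of members and 23.0% of all tested genes, and lower calls made up 6.56% of members and 24.8% of all tested genes. Fold changes are given as log2 of NICD_mut over NICD_wt, from counts, with a standard error (SE). Their median was 0.60 over the members and 0.01 over all tested genes. Among members, 24 were called higher by at least 2-fold (7.93% of all tested genes were), 15 of them by at least 4-fold (2.1% of all tested genes), and 0 were called lower by at least 2-fold (4.01%). Both NICD_mut libraries lay above all NICD_wt libraries for 35 members and below them for 11, in CPM (counts scaled for depth), where 32.9% of all tested genes lay above and 34.2% below. Limma on log2(TPM + 1) called 4448 of all tested genes higher and 2803 lower, in place of 3649 and 3934, and 33 members higher and 4 lower. Of the 61 members, 58 reached a count of 10 in both groups, and 28 of these were higher and 4 lower. Among these 58, 23 were called higher by at least 2-fold and 14 by at least 4-fold. Gstm3 passed the level through NICD_mut alone, and Cyp4x1 and Cyp4f39 through NICD_wt alone.

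**Figure D1:**
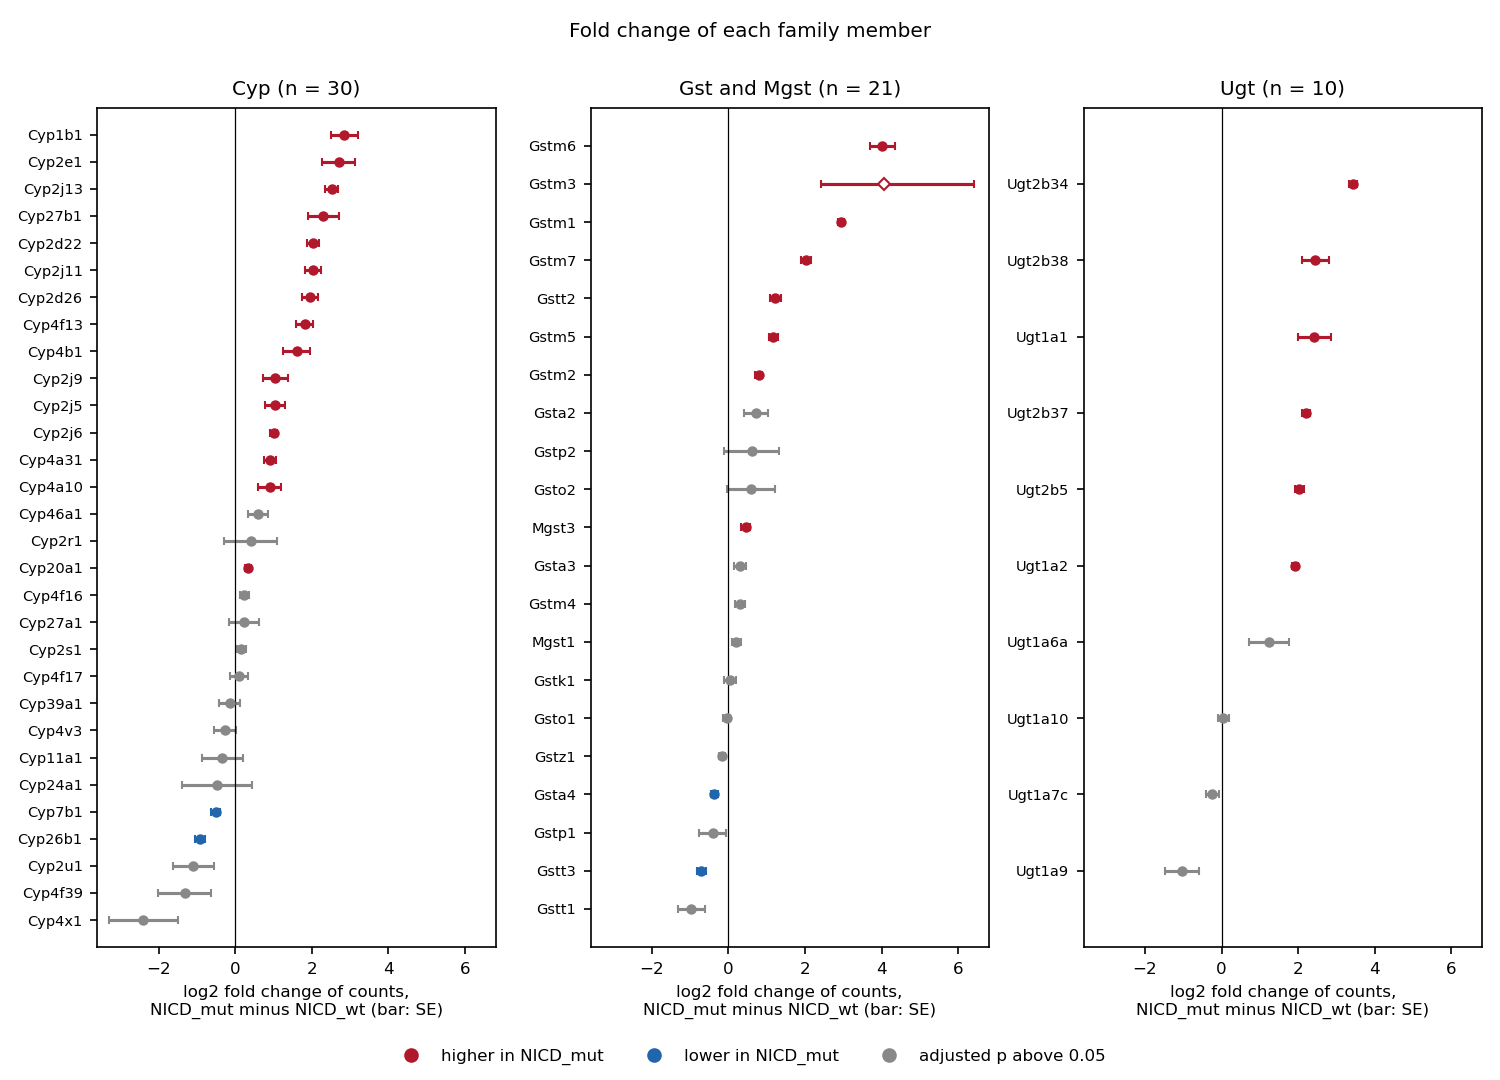
Log2 fold change of counts, NICD_mut minus NICD_wt, for each of the 61 members by family. Points are the edgeR estimates with SE bars, coloured by whether the gene was higher, lower or not called. The open diamond is the count ratio of Gstm3 with its 95% counting interval. The called members lie mostly to the right of 0, and the 4 lower ones (Cyp7b1, Cyp26b1, Gsta4, Gstt3) lie less than 1 log2 unit to its left.

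Marker transcripts of several cell types differed between the groups as well. Of all tested genes, 23.0% were called higher and 24.8% lower. Of 24 proximal tubule markers 14 were higher, 4 lower and 6 not called, and they summed to 1287 and 1255 TPM in NICD_mut, against 489, 592 and 520 TPM in NICD_wt. All 8 endothelial markers were higher, at 588 and 655 TPM in NICD_mut, against 347, 387 and 364 TPM in NICD_wt. Of 9 leukocyte markers 7 were higher, at 247 and 225 TPM in NICD_mut, against 103, 94.0 and 98.6 TPM in NICD_wt. Of 6 red cell markers 4 were higher, at 51170 and 59222 TPM in NICD_mut, against 25974, 25809 and 20632 TPM in NICD_wt. Of 8 collecting duct markers 7 were lower and 1 (Krt8) higher. The 8 summed to 416 and 331 TPM in NICD_mut, against 462, 499 and 483 TPM in NICD_wt. Krt8 made up most of the NICD_mut sums, at 349 and 267 TPM, against 160, 166 and 183 TPM in NICD_wt. These sums therefore say little about the 7 lower markers. Calb1 of that list stood at 0.19 TPM in both NICD_mut libraries, against 94.7, 94.7 and 95.5 TPM in NICD_wt. The liver, rich in the same enzymes, was represented by 14 markers, which summed to 170 and 157 TPM in NICD_mut, against 66.4, 97.9 and 56.6 TPM in NICD_wt, and of the 9 that could be tested 2 were higher (Fgb and Serpina1a). Alb, the main liver transcript, stood at 19.7 and 6.18 TPM in NICD_mut, against 10.3, 20.7 and 3.84 TPM in NICD_wt, and Tat at 0.15 and 0 TPM, against 0 in each NICD_wt library. None of the 5 adrenal cortex markers tested was called, and their regulator Nr5a1 stood at 0.15 and 0.30 TPM in NICD_mut, against 0.14, 0.19 and 0.16 TPM in NICD_wt. No list had a marker at 0 in all 5 libraries. The part of cell make-up in the family results was not tested.

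Cyp1b1, the only member of the aryl-hydrocarbon-metabolising CYP1 class, had the highest fold change among P450 genes with all libraries (chr17:79701537-79715061 in mm10, minus strand). It stood at 66.2 and 126 TPM in NICD_mut, against 11.8, 13.1 and 12.7 TPM in NICD_wt. The 2 NICD_mut libraries were far apart from each other, yet both were above every NICD_wt library. The log2 fold change was 2.85 (SE 0.35, edgeR adjusted p = 0.00765). It was 3.26 without NICD_mut 1 and 2.26 without NICD_mut 2, where Cyp2e1 (3.02) and Cyp2j13 (2.61) were higher. The gene shared no 50-base stretch with other symbols of the families in the GENCODE transcripts.

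The CYP2 class, the broad drug-oxidising group, had 10 members of 48 symbols. Of the 10, 8 were higher, each by at least 2-fold (7.93% of all tested genes were). The median log2 fold change of the class was 1.502. Cyp2d26 was the most abundant P450 gene in NICD_mut kidneys by the mean and in NICD_mut 1, though not in NICD_mut 2, where Cyp1b1 was higher. It stood at 141 and 109 TPM in NICD_mut, against 25.1, 37.6 and 26.0 TPM in NICD_wt (log2 fold change 1.95, SE 0.21, edgeR adjusted p = 0.00146). Its neighbour Cyp2d22 on chromosome 15 stood at 19.1 and 14.1 TPM in NICD_mut, against 4.10, 3.34 and 3.68 TPM in NICD_wt (log2 fold change 2.04, SE 0.16, edgeR adjusted p = 2.29e-05). The groups did not overlap for either gene, and NICD_mut 1 was the higher NICD_mut library for both. Cyp2e1, which oxidises ethanol and other small molecules, was scarce, at 4.22 and 2.47 TPM in NICD_mut, against 0.68, 0.39 and 0.62 TPM in NICD_wt, with a log2 fold change of 2.71 (SE 0.43, edgeR adjusted p = 0.0009).

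The 5 Cyp2j members, whose family makes epoxides from arachidonic acid, lie together at chr4:96027534-96664154. All 5 were higher, where 23.0% of all tested genes were. Together they summed to 73.7 and 58.3 TPM in NICD_mut, against 22.2, 26.6 and 21.95 TPM in NICD_wt, 2.80 times as much. Cyp2j13 stood at 15.0 and 12.3 TPM in NICD_mut, against 1.86, 2.67 and 2.04 TPM in NICD_wt (log2 fold change 2.52, SE 0.17, edgeR adjusted p = 9.86e-06). Cyp2j11 stood at 10.8 and 8.98 TPM in NICD_mut, against 2.31, 2.16 and 2.17 TPM in NICD_wt (log2 fold change 2.03, SE 0.21, edgeR adjusted p = 8.05e-05). Neither gene's groups overlapped, and the remaining 3 neighbours had smaller fold changes. Cyp2j6, the most abundant of the 5, stood at 24.2 and 22.4 TPM in NICD_mut, against 10.3, 11.5 and 10.2 TPM in NICD_wt (log2 fold change 1.003, SE 0.093). Cyp2j5 had a log2 fold change of 1.04 (SE 0.26, edgeR adjusted p = 0.0197), which was not called without NICD_wt 1 (0.0715) or without NICD_wt 3 (0.0627). Cyp2j9 had a log2 fold change of 1.05 (SE 0.32, edgeR adjusted p = 0.0226), and its call was lost when NICD_mut 1, NICD_wt 1, NICD_wt 2 or NICD_wt 3 was left out, at adjusted p-values of 0.0507 to 0.151. The remaining CYP2 members were not called: Cyp2s1 had a log2 fold change of 0.16 (SE 0.11) and Cyp2u1, a fatty acid hydroxylase, of -1.09 (SE 0.54).

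The CYP4 class, which hydroxylates fatty acids at their far end, had 9 members of 17 symbols. Of the 9, 4 were higher (44.4%, against 23.0% of all tested genes) and 5 not called. Cyp4f13 stood at 12.5 and 16.6 TPM in NICD_mut, against 3.03, 3.91 and 4.27 TPM in NICD_wt (log2 fold change 1.82, SE 0.22, edgeR adjusted p = 0.000231). Its 3 neighbours at chr17:32452723-32947402 were not called: Cyp4f16 had a log2 fold change of 0.24, Cyp4f17 of 0.10 and Cyp4f39 of -1.31. On chromosome 4, Cyp4b1 stood at 3.58 and 4.77 TPM in NICD_mut, against 0.96, 1.08 and 1.65 TPM in NICD_wt (log2 fold change 1.61, SE 0.36, edgeR adjusted p = 0.00548). Cyp4a31 stood at 20.5 and 28.2 TPM in NICD_mut, against 12.3, 12.5 and 11.2 TPM in NICD_wt, with a log2 fold change of 0.90 (SE 0.15). Cyp4a10, a classic target of the fatty acid receptor PPAR alpha, had the same log2 fold change of 0.90 with a wider SE of 0.30 (edgeR adjusted p = 0.0339). Its call was lost without NICD_mut 2 (0.162), NICD_wt 1 (0.0964) or NICD_wt 3 (0.0765). Cyp4x1, in the same cluster, had 2 counts in each NICD_mut library, against 11, 17 and 4 counts in NICD_wt, and was not called (log2 fold change -2.40, SE 0.90, edgeR adjusted p = 0.0533). It was called without NICD_wt 3, at -2.74. Cyp4v3 had a log2 fold change of -0.25 (SE 0.29).

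The P450 genes of vitamin D metabolism did not move together. Cyp27b1, which makes the active hormone and acts in the proximal tubule, stood at 2.01 and 2.06 TPM in NICD_mut, against 0.29, 0.47 and 0.37 TPM in NICD_wt (log2 fold change 2.30, SE 0.41, edgeR adjusted p = 0.00155). Cyp24a1, which inactivates the hormone, stood at 0.42 and 0.11 TPM in NICD_mut, against 0.18, 0.12 and 0.73 TPM in NICD_wt, so its groups overlapped. Cyp2r1, which makes the precursor, had 13 and 14 counts in NICD_mut, against 4, 8 and 16 counts in NICD_wt, and also overlapped. Vdr, the hormone's receptor, had a log2 fold change of 0.32 (SE 0.11, edgeR adjusted p = 0.0420).

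Both P450 genes that were lower act on developmental or sterol signals. Cyp26b1, which degrades retinoic acid, stood at 4.63 and 5.53 TPM in NICD_mut, against 7.74, 9.58 and 9.18 TPM in NICD_wt (log2 fold change -0.92, SE 0.14, edgeR adjusted p = 0.000815). Its relative Cyp26a1 fell below the count level, with 0 counts in both NICD_mut libraries, against 8, 9 and 5 counts in NICD_wt. Cyp7b1, which hydroxylates oxysterols, stood at 12.7 and 11.9 TPM in NICD_mut, against 15.2, 15.6 and 17.2 TPM in NICD_wt (log2 fold change -0.50, SE 0.12, edgeR adjusted p = 0.00771). The other sterol enzymes were not called: Cyp27a1 had a log2 fold change of 0.22 (SE 0.39), Cyp39a1 of -0.14 (SE 0.27) and Cyp46a1 of 0.60 (SE 0.25). Cyp46a1 was called higher without NICD_wt 3 (0.81, edgeR adjusted p = 0.0431) and by limma on log2(TPM + 1) (adjusted p = 0.0381). Cyp11a1, the first enzyme of steroid hormone synthesis, was below 1.5 TPM throughout and not called. Cyp20a1, an orphan P450 with no agreed substrate, stood at 43.5 and 42.3 TPM in NICD_mut, against 31.5, 30.4 and 33.2 TPM in NICD_wt, with a called but small log2 fold change of 0.33 (SE 0.08).

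**Figure D2:**
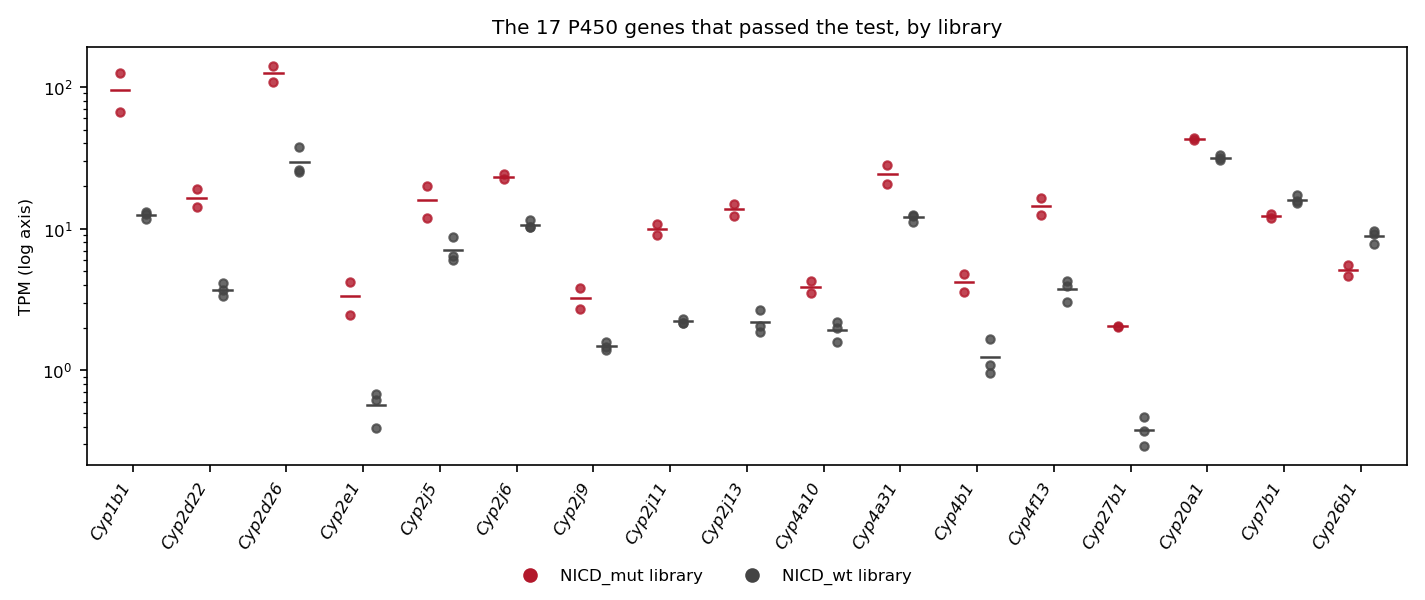
TPM on a log axis of the 17 P450 genes that passed the test, with a point for each library and a line at each group's mean, NICD_mut left and NICD_wt right of each tick. For Cyp1b1 both NICD_mut points (66.2 and 126 TPM) lie above the NICD_wt points, and for Cyp7b1 and Cyp26b1 both lie below.

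These changes altered which P450 genes made up most of the family's transcript. In NICD_mut, Cyp2d26 held on average 26.1% of the summed Cyp TPM (22.4% to 29.7%), Cyp1b1 19.9% (13.95% to 25.8%) and Cyp20a1 8.93%. In NICD_wt, Cyp20a1 held on average 15.9% (14.3% to 16.7%), Cyp2d26 14.7% (13.1% to 17.7%), Cyp7b1 8.02% and Cyp1b1 6.25%. The order of the leading pair differed between libraries, with Cyp1b1 first in NICD_mut 2 and Cyp2d26 first in NICD_wt 2.

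The mu class carried most of the change among glutathione S-transferases. All 7 Gstm genes lie within chr3:107895821-108044894. In every one both NICD_mut libraries lay above all NICD_wt libraries in CPM (32.9% of all tested genes did). Of the 7, 6 were called higher (23.0% of all tested genes were), and the median log2 fold change was 2.02. These values include Gstm3, which reached the count level through NICD_mut alone and so adds no support. Their sum was 986 and 957 TPM in NICD_mut, against 241, 276 and 298 TPM in NICD_wt, 3.58 times as much. Gstm1, the main mu enzyme of mouse liver, stood at 468 and 441 TPM in NICD_mut, against 48.0, 56.9 and 58.1 TPM in NICD_wt (log2 fold change 2.94, SE 0.08, edgeR adjusted p = 1.12e-07). It was the most abundant gene of all 3 families in both NICD_mut libraries, though only just above Gstp1 in NICD_mut 1. Gstp1 shared 33.7% of its 50-base stretches with Gstp2, so that order depends on how reads were divided.

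Gstm6 stood at 16.95 and 12.4 TPM in NICD_mut, against 0.69, 1.07 and 0.69 TPM in NICD_wt (log2 fold change 4.02, SE 0.32, edgeR adjusted p = 2.37e-05). Gstm7 stood at 67.9 and 61.1 TPM in NICD_mut, against 13.5, 13.2 and 17.1 TPM in NICD_wt (log2 fold change 2.02, SE 0.13, edgeR adjusted p = 9.68e-06). Gstm5 stood at 282 and 267 TPM in NICD_mut, against 94.0, 113 and 129 TPM in NICD_wt (log2 fold change 1.18, SE 0.12, edgeR adjusted p = 0.000189). All 3 differed between the groups by far more than within them. Gstm2 stood at 133 and 154 TPM in NICD_mut, against 70.8, 77.4 and 79.4 TPM in NICD_wt (log2 fold change 0.80, SE 0.09, edgeR adjusted p = 0.000147). Gstm3 had 19 and 17 counts in NICD_mut, against 3, 0 and 0 counts in NICD_wt, a depth-scaled ratio of 16.8 with a 95% counting interval of 5.32 to 85.5. It reached the count level through NICD_mut alone, and the interval covers counting error only. Gstm4, at the end of the cluster, was the exception in size: it stood at 17.6 and 20.2 TPM in NICD_mut, against 13.3, 14.6 and 14.4 TPM in NICD_wt, and was not called (log2 fold change 0.30, SE 0.14, edgeR adjusted p = 0.1004). It was called higher without NICD_mut 1 (0.42, edgeR adjusted p = 0.0438) and by limma on log2(TPM + 1) (adjusted p = 0.0154). The ratio of Gstm1 to Gstm4 TPM was 26.6 and 21.9 in NICD_mut, against 3.62, 3.91 and 4.05 in NICD_wt. Gstm1 shared 15.9% of its 50-base stretches with other family symbols, Gstm3 18.3%, Gstm6 3.49%, and Gstm4, Gstm5 and Gstm7 none.

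The theta genes, adjacent at chr10:75774115-75837424, moved in opposite directions. Gstt2 stood at 37.1 and 41.9 TPM in NICD_mut, against 17.2, 15.9 and 13.5 TPM in NICD_wt (log2 fold change 1.23, SE 0.14, edgeR adjusted p = 0.000157). Gstt3 stood at 14.0 and 14.2 TPM in NICD_mut, against 20.3, 22.8 and 20.2 TPM in NICD_wt (log2 fold change -0.71, SE 0.12, edgeR adjusted p = 0.00119). The ratio of Gstt2 to Gstt3 TPM was thus above 1 in both NICD_mut libraries (2.65 and 2.96) and below 1 in all NICD_wt libraries (0.848, 0.697 and 0.670). Gstt1 stood at 7.26 and 3.38 TPM in NICD_mut, against 7.19, 10.9 and 10.6 TPM in NICD_wt, and missed the threshold (log2 fold change -0.96, SE 0.36, edgeR adjusted p = 0.0549). It was called lower without NICD_mut 1, at -1.60, and with no filter on low counts, at -0.98 (edgeR adjusted p = 0.0354).

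In the alpha, pi, omega, zeta and kappa classes only Gsta4 was called, and differences in the uncalled members are not excluded. Gsta4, which conjugates aldehydes from oxidised lipid, was called lower at 103 and 99.5 TPM in NICD_mut, against 124, 111 and 125 TPM in NICD_wt (log2 fold change -0.36, SE 0.09, edgeR adjusted p = 0.009). Gsta2 stood at 43.3 and 19.4 TPM in NICD_mut, against 15.4, 19.9 and 17.6 TPM in NICD_wt. It shared 36.0% of its 50-base stretches with Gsta1. Only NICD_mut 1 stood apart for Gsta2, which was not called with both NICD_mut libraries (log2 fold change 0.72, SE 0.32) and was called without NICD_mut 2, at 1.17. Gstp1 was the most abundant member in NICD_wt, at 465 and 270 TPM in NICD_mut, against 505, 506 and 342 TPM in NICD_wt. Both groups were widely spread and overlapped (log2 fold change -0.41, SE 0.35, edgeR adjusted p = 0.410). Gsto1, which also recycles dehydroascorbate, stood at 85.8 and 74.4 TPM in NICD_mut, against 76.8, 75.6 and 75.4 TPM in NICD_wt. The other uncalled members had log2 fold changes of 0.30 (Gsta3), 0.61 (Gstp2), 0.60 (Gsto2), -0.16 (Gstz1, an enzyme of tyrosine breakdown) and 0.05 (Gstk1, the mitochondrial and peroxisomal form).

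Among the membrane-bound microsomal enzymes, Mgst3 stood at 106 and 96.3 TPM in NICD_mut, against 67.0, 75.8 and 61.9 TPM in NICD_wt (log2 fold change 0.46, SE 0.12, edgeR adjusted p = 0.0119). Its call was lost without NICD_mut 1 (0.0528). Mgst1 had a log2 fold change of 0.20 (SE 0.12) and was not called. It was called higher without NICD_mut 1 (0.39, edgeR adjusted p = 0.00296) and was at -0.018 without NICD_mut 2. In NICD_mut, Gstm1 held on average 23.5% of the summed Gst and Mgst TPM, Gstp1 18.7% and Gstm5 14.2%. In NICD_wt, Gstp1 held on average 36.1%, Gsta4 9.70% and Gstm5 9.07%, with Gstm5 above Gsta4 in NICD_wt 2 and NICD_wt 3.

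The UGT2 class, which conjugates steroids, bile acids and drugs, had 4 members of 10 symbols. All 4 were called higher by at least 4-fold (2.1% of all tested genes were). They are Ugt2b genes within chr5:86889767-87424203. Ugt2b34 stood at 83.0 and 92.8 TPM in NICD_mut, against 8.36, 7.01 and 7 TPM in NICD_wt (log2 fold change 3.44, SE 0.10, edgeR adjusted p = 2.17e-07). Ugt2b37 stood at 94.8 and 81.9 TPM in NICD_mut, against 18.1, 15.7 and 18.8 TPM in NICD_wt (log2 fold change 2.21, SE 0.10, edgeR adjusted p = 1.27e-06). In each of these genes the libraries of a group were close together and the groups wide apart. Ugt2b5 stood at 31.3 and 33.2 TPM in NICD_mut, against 7.11, 7.63 and 7.2 TPM in NICD_wt (log2 fold change 2.02, SE 0.12, edgeR adjusted p = 4.54e-06). Ugt2b38 stood at 10.4 and 12.9 TPM in NICD_mut, against 3, 1.69 and 1.21 TPM in NICD_wt (log2 fold change 2.45, SE 0.35, edgeR adjusted p = 0.000865). Ugt2b5 and Ugt2b38 shared 41.7% and 37.4% of their 50-base stretches with other family symbols, so their separate values depend on how reads were divided. Ugt2b34 shared 1.44%.

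The Ugt1a genes at chr1:88055388-88220002 each have their own first exon and share the rest, and 52.1% to 63.7% of their 50-base stretches occur in other family symbols. Of 6 members 2 were higher (33.3%, against 23.0% of all tested genes) and 4 not called. The 6 summed to 96.4 and 99.9 TPM in NICD_mut, against 38.6, 39.9 and 40.6 TPM in NICD_wt (2.47 times). Ugt1a2 stood at 67.7 and 78.1 TPM in NICD_mut, against 18.0, 17.7 and 17.8 TPM in NICD_wt (log2 fold change 1.91, SE 0.08, edgeR adjusted p = 1.18e-06). Ugt1a1, the bilirubin-conjugating enzyme, stood at 2.23 and 1.94 TPM in NICD_mut, against 0.50, 0.38 and 0.20 TPM in NICD_wt (log2 fold change 2.42, SE 0.43, edgeR adjusted p = 0.00165). Both called genes lie at the downstream end of the locus. Ugt1a10, at the upstream end, stood at 18.9 and 13.9 TPM in NICD_mut, against 12.5, 16.02 and 15.1 TPM in NICD_wt, with overlapping groups (log2 fold change 0.05, SE 0.15). The ratio of Ugt1a2 to Ugt1a10 TPM was 3.58 and 5.62 in NICD_mut, against 1.45, 1.10 and 1.18 in NICD_wt. Ugt1a7c had a log2 fold change of -0.25 (SE 0.17). The scarce Ugt1a6a and Ugt1a9 were not called with all libraries (log2 fold changes 1.23, SE 0.52, and -1.04, SE 0.45). Ugt1a6a was called higher without NICD_mut 2, at 1.63, and Ugt1a9 lower without NICD_mut 1, at -1.62.

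**Figure D3:**
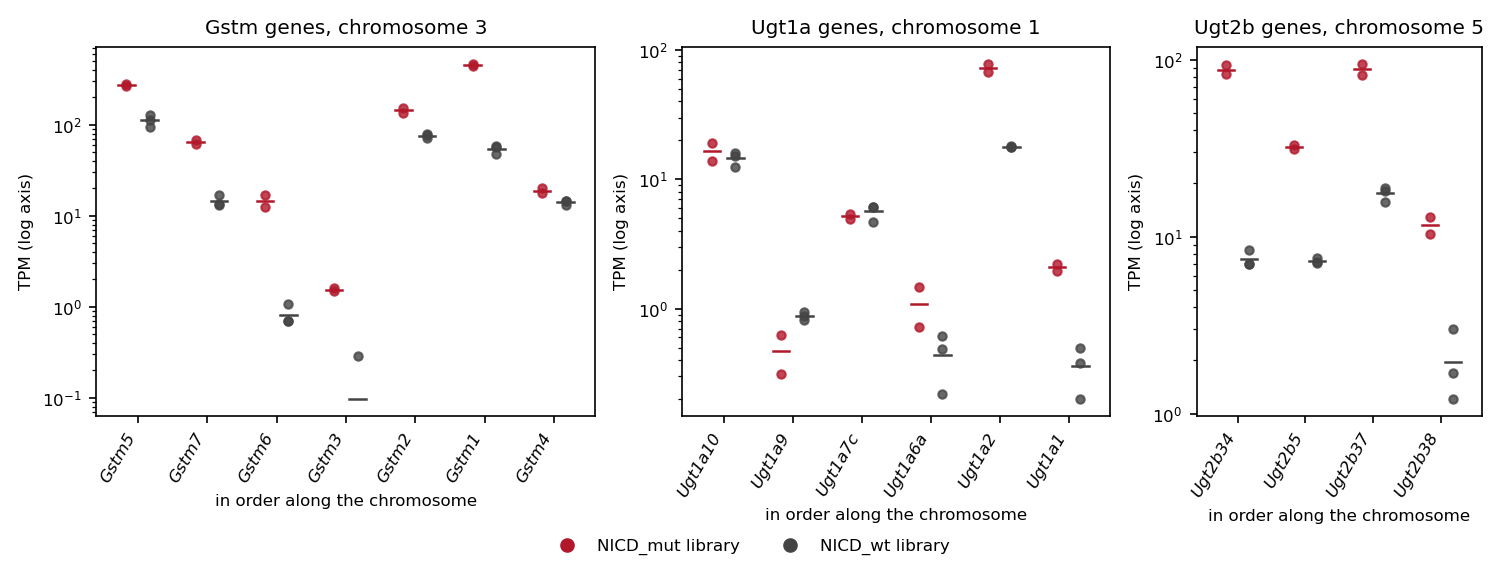
TPM on a log axis of the Gstm, Ugt1a and Ugt2b members in order along their chromosome, with a point for each library and a line at each group's mean, NICD_mut left and NICD_wt right of each tick. The 2 NICD_wt libraries at 0 for Gstm3 cannot be drawn on a log axis. The gap between the groups is wide for all 4 Ugt2b genes, for Gstm1, Gstm6 and Gstm7 and for Ugt1a2, and narrow for Gstm4 and Ugt1a10.

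In NICD_mut, Ugt2b37 held on average 27.7% of the summed Ugt TPM, Ugt2b34 27.5% and Ugt1a2 22.9%. In NICD_wt, Ugt1a2 held on average 24.0%, Ugt2b37 23.6%, Ugt1a10 19.6% and Ugt2b34 10.02%. Libraries differed in which of the leading pair came first in each group.

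At the edge of the count level, the members just inside were Cyp4x1 and Cyp2r1, given above, Cyp4f39, with 3 and 7 counts in NICD_mut, against 14, 14 and 8 counts in NICD_wt, and Cyp24a1, with 16 and 4 counts in NICD_mut, against 7, 5 and 25 counts in NICD_wt. Just outside were Cyp26a1, given above, Ugt2a3, with 9 and 9 counts in NICD_mut, against 4, 0 and 0 counts in NICD_wt, Cyp2c23, with 17 and 0 counts in NICD_mut, against 5, 7 and 2 counts in NICD_wt, and Cyp2d9, with 8 and 5 counts in NICD_mut, against 0, 0 and 2 counts in NICD_wt. None of the 7 CYP3 and 2 UGT3 symbols reached the level.

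Genes that serve these enzymes were read from 8 lists. Their counts are to be read beside the 23.0% of all tested genes called higher and the 24.8% called lower. Of 18 tested xenobiotic receptors and regulators 12 were higher, 1 lower and 5 not called. Nr1i2, the drug-sensing receptor PXR that induces many P450, Gst and Ugt genes in liver, stood at 6.37 and 5.95 TPM in NICD_mut, against 0.51, 0.51 and 0.63 TPM in NICD_wt (log2 fold change 3.38, SE 0.27, edgeR adjusted p = 2.20e-05). Nr1h4, the bile acid receptor FXR, stood at 12.3 and 12.8 TPM in NICD_mut, against 1.44, 2.66 and 1.92 TPM in NICD_wt (log2 fold change 2.53, SE 0.25, edgeR adjusted p = 7.27e-05). Both receptors were higher in each NICD_mut library than in any NICD_wt library. Ahr, the aryl hydrocarbon receptor, of which Cyp1b1 is a classic target, stood at 18.2 and 11.8 TPM in NICD_mut, against 7.74, 8.03 and 7.94 TPM in NICD_wt (log2 fold change 0.79, SE 0.15). Ahr was higher in NICD_mut 1 than in NICD_mut 2, and Cyp1b1 the reverse. A link between Ahr and Cyp1b1 was not tested. Rxra, the partner of PXR and FXR, had a log2 fold change of 0.39 (SE 0.07). Hnf4a, which acts in proximal tubule and liver, had a log2 fold change of 0.62.

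The Nrf2 list, which covers the response to electrophiles, went the other way, with 1 gene higher, 7 lower and 9 not called of 17. Gclc, the catalytic subunit of the rate-limiting enzyme of glutathione synthesis, stood at 15.6 and 15.1 TPM in NICD_mut, against 27.7, 32.8 and 29.0 TPM in NICD_wt (log2 fold change -1.08, SE 0.09, edgeR adjusted p = 3.36e-05). Prdx1, a peroxiredoxin, had a log2 fold change of -0.50 (SE 0.06) and Slc7a11, the cystine importer, of -0.55 (SE 0.09). Srxn1 was the gene called higher, at 0.54 (SE 0.11), and without NICD_mut 2 the list held 3 higher genes. Nqo1 (0.27, SE 0.18), Hmox1 (-0.20, SE 0.09), Nfe2l2 (-0.12, SE 0.07) and Keap1 (0.04, SE 0.06) were not called. The list of glutathione synthesis and turnover shares Gclc, Gclm and Slc7a11 with it, and had 6 higher, 4 lower and 8 not called of 18. Its higher genes included Oplah, which recovers glutamate from oxoproline (log2 fold change 1.21, SE 0.10), and Ggt5, a gamma-glutamyltransferase (1.02, SE 0.16).

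Of 6 tested glutathione peroxidases 4 were higher and 2 lower. Gpx3, the form secreted by the proximal tubule, stood at 374 and 414 TPM in NICD_mut, against 80.4, 97.6 and 84.8 TPM in NICD_wt (log2 fold change 2.05, SE 0.09, edgeR adjusted p = 1.56e-06). Gpx8, which acts in the endoplasmic reticulum, had a log2 fold change of 0.39 (SE 0.07). Gpx6 had no count in either NICD_mut library, against 67, 70 and 54 counts in NICD_wt. The other lower gene was Gpx4, at -0.21 (SE 0.07), and the count of lower genes was 1 without NICD_mut 1, NICD_wt 1 or NICD_wt 3. The 8 P450 redox partners, which pass electrons to the P450 enzymes, gave 2 higher, 1 lower and 5 not called. The higher count is near the share over all tested genes (23.0%). Por, the reductase of the microsomal P450 enzymes, stood at 77.9 and 77.9 TPM in NICD_mut, against 58.7, 71.8 and 62.5 TPM in NICD_wt, and was not called (log2 fold change 0.15, SE 0.09). Cyb5r3 (0.41, SE 0.07) and Cyb5a (0.25, SE 0.07) were the higher genes and Cyb5b (-0.48, SE 0.06) the lower one. Without NICD_wt 1 or NICD_wt 3 the count of higher partners was 1, and without NICD_mut 2 the count of lower ones was 2.

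Other oxidation and hydrolysis enzymes gave 12 higher, 1 lower and 11 not called of 24. Fmo1, a flavin monooxygenase, stood at 123 and 114 TPM in NICD_mut, against 32.1, 43.2 and 31.8 TPM in NICD_wt (log2 fold change 1.63, SE 0.11, edgeR adjusted p = 1.86e-05). Ephx1, the microsomal epoxide hydrolase, had a log2 fold change of 2.37 (SE 0.14), and Ces1f, a carboxylesterase, of 5.01 (SE 0.36) from 0.27 TPM or less in NICD_wt. The lower gene was Aox3, an aldehyde oxidase (-0.67, SE 0.23), and the count of lower genes was 0 without NICD_wt 1, NICD_wt 2 or NICD_wt 3 and 3 without NICD_mut 2. Other conjugation enzymes gave 7 higher, 1 lower and 12 not called of 20. Sult1d1 (log2 fold change 1.22, SE 0.08) and Sult1a1 (2.14, SE 0.20) are sulfotransferases. The lower gene was Inmt, a methyltransferase (-1.59, SE 0.45), and the count of lower genes was 2 without NICD_mut 1 and 0 without NICD_mut 2 or NICD_wt 1. Ugdh, which makes the glucuronic acid donor used by the Ugt enzymes, was not called (0.11, SE 0.07). Of 10 conjugate efflux transporters 5 were higher, 1 lower and 4 not called. Abcc3, an exporter of glucuronides, had a log2 fold change of 1.45 (SE 0.17) and Abcc5 of 0.78 (SE 0.09), and Abcc1, an exporter of glutathione conjugates, of -0.62 (SE 0.10).

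**Figure D4:**
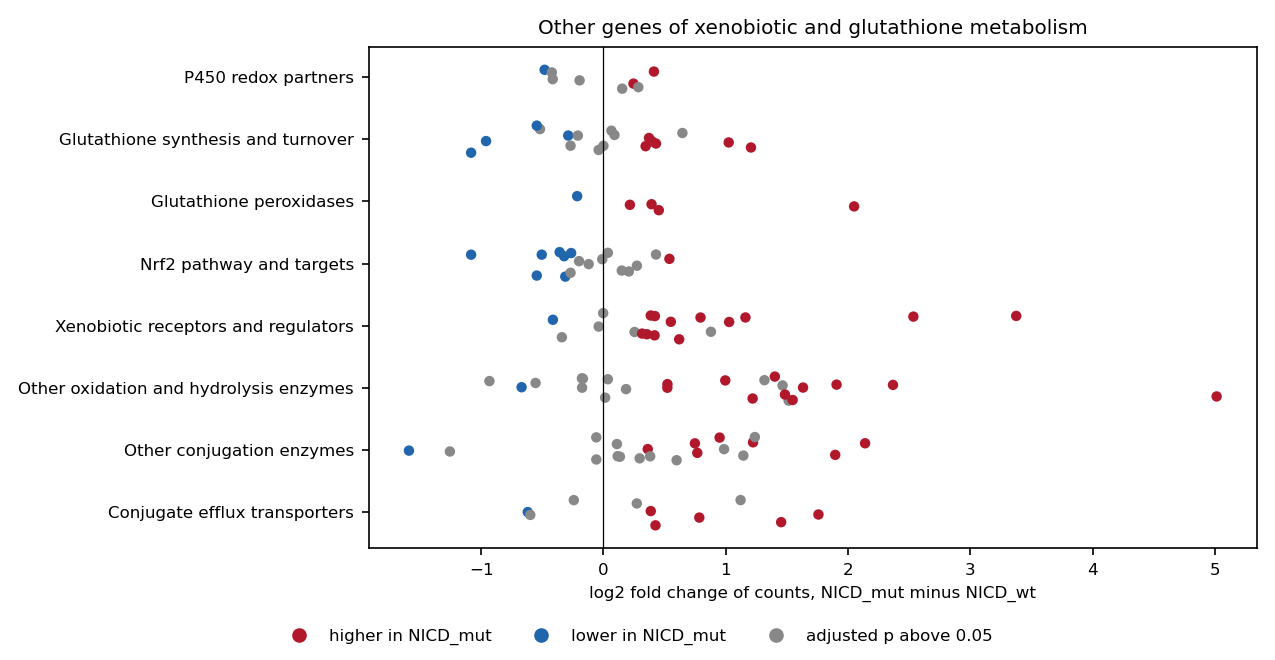
Log2 fold change of counts, NICD_mut minus NICD_wt, of the tested genes of 8 lists, a point for each gene, coloured by whether it was higher, lower or not called, with random vertical spread. Gpx6 and Ces2c, with at most 3 counts in all in a group, are not drawn. Most called receptors, oxidation and conjugation enzymes lie to the right of 0, and the called Nrf2 genes lie to its left, with Srxn1 the exception.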

How the data were processed

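Bulk RNA from whole kidneys gave 2 NICD_mut and 3 NICD_wt libraries. The authors deposited estimated counts per gene symbol, which are whole numbers, and TPM values that sum to 1000000 per library. The submitters' processing notes name RSEM, Bowtie2 and mm10. Versions, annotation and strandedness were not given in the sources used here. Reads of near-identical genes are divided by estimation in RSEM, and reads of overlapping antisense genes may not be told apart.

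Counts were scaled with TMM (factors 0.9964 to 1.0054) and filtered with filterByExpr (minimum count 10, minimum total 15). The 15885 remaining genes were tested with edgeR 4.0.16 (robust quasi-likelihood, no covariates) in R 4.3.3, adjusted by Benjamini-Hochberg over all of them. TPM was used for levels between genes and for the summed levels of each library. Counts were also simulated for the same 15885 genes. The test recovered 35.4% of 82 genes changed 1.5-fold, 64.4% of 59 changed 2-fold and 81.4% of 59 changed 4-fold. Of the calls in the simulation, 10.9% were false. Far fewer genes were changed there than were called in the data (7583), so these rates do not describe the reported calls. Alternatives were DESeq2 1.42.0, DESeq2-type size factors, library size alone, no filter, a stricter filter, limma 3.58.1 on log2 TPM (pseudocounts 1 and 0.1), a replicate block and libraries left out.

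The members, lists and alternatives were chosen with earlier results of these data known. Every member could be named; values per library were given for up to 8 called members a family with the largest fold changes, the 3 most abundant, uncalled ones of at least 2 log2 units, those nearest the count level and up to 3 genes a pathway list, with other members added to complete a class or cluster. Among list genes, Ahr, Aox3, Gclm, Gpx4, Hmox1, Hnf4a, Inmt, Keap1, Nfe2l2, Nqo1, Por, Srxn1, Ugdh and Vdr fall outside that rule and were chosen after their values were seen. Some list genes are counted but not reported by name here. Clusters chain members at most 500 kb apart by GENCODE M21 coordinates (mm10), and shared sequence was counted in 50-base stretches of its transcripts. Promoters are RefSeq (GRCm38.p6). Counting intervals (95%) cover counting error only. Figures used matplotlib 3.10.9 in Python 3.11.15.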

Additional observations from a re-analysis of the deposited data

How the results depend on the processing

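No called member changed direction under any of the alternatives run. All 33 calls held under DESeq2-type size factors, library size alone, no filter, the DESeq2 Wald test and limma on log2 TPM, as did the 31 of them tested at 50 counts in 2 libraries. Without a filter Gstt1 was called lower too (adjusted p = 0.0354). Members higher and lower numbered 29 and 4 in the report, 33 and 4 under limma on log2(TPM + 1), 25 and 3 with the replicate block, and 27 and 5 without NICD_mut 1 and NICD_wt 1 together. Limma shifted the median log2 fold change of all genes to 0.111 (pseudocount 1), 0.129 (pseudocount 0.1) and 0.077 (no filter), against 0.013. Leaving out each library in turn gave 26 to 30 members higher and 4 to 6 lower, with 12 to 14 and 2 to 3 for Cyp, 8 to 9 and 2 to 3 for Gst and Mgst, and 6 to 7 and 0 to 1 for Ugt. A fit with 1 NICD_mut library assumes that it varies like the other group.

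Replicate numbers pair no samples by the labels, and only 2 numbers are shared (deviations of same-numbered libraries correlated at 0.339 and 0.132 across genes). With the replicate block, Cyp2j9 (adjusted p = 0.0800), Cyp2j5 (0.136), Cyp4a10 (0.0769), Mgst3 (0.0799) and Cyp7b1 (0.0598) were not called, leaving 1 lower Cyp member. The block also gave 1 higher redox partner, 2 higher and 1 lower peroxidases, 7 higher receptors and 0 lower oxidation enzymes, and a Cyp24a1 log2 fold change of 0.55. Without NICD_mut 1 and NICD_wt 1 together, Cyp2j9 (0.206), Mgst3 (0.0718) and Cyp20a1 (0.0675) were not called, Ugt2b38 reached 3.04, and the lists gave 2 higher and 1 lower peroxidases and 2 lower conjugation enzymes. Library size alone gave 2 lower redox partners and the stricter filter 0 lower conjugation enzymes. Limma on log2(TPM + 1) gave 1 lower peroxidase, 3 higher Nrf2 genes, 0 lower oxidation enzymes, and 11 higher and 2 lower conjugation enzymes. With a pseudocount of 0.1 the values were 1 lower peroxidase, 3 higher Nrf2 genes, 0 lower oxidation enzymes and 2 lower conjugation enzymes. Without a filter limma gave 2606 lower genes in all, 1 lower peroxidase, 4 lower Nrf2 genes, 0 lower receptors, 0 lower oxidation enzymes and 2 lower conjugation enzymes. Limma calls the uncalled Gsta3, Cyp4f16 and Gstm4 higher in each form, and puts Ugt1a1 at 1.19, Gstm6 at 3.10, Cyp2e1 at 1.45, Cyp27b1 at 1.14 and Gstm3 at 1.22 with a pseudocount of 1.

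Across single libraries left out, all genes higher ranged from 2797 to 3843 and lower from 3101 to 4207, redox partners from 1 to 3 and 1 to 2, glutathione synthesis from 4 to 5 and 3 to 5, peroxidases from 3 to 4 and 1 to 2, Nrf2 genes from 1 to 3 and 5 to 8, receptors from 8 to 11 and 1 to 1, oxidation enzymes from 9 to 14 and 0 to 3, conjugation enzymes from 6 to 8 and 0 to 2, and transporters from 5 to 5 and 1 to 1. The following uncalled genes changed sign. With single libraries left out, log2 fold changes ranged from -0.14 to 0.030 for Gsto1, -0.018 to 0.39 for Mgst1, -0.061 to 0.48 for Cyp27a1, -0.16 to 0.22 for Ugt1a10, -0.47 to 0.11 for Cyp39a1, -0.093 to 0.17 for Gstk1 and -1.71 to 0.18 for Cyp24a1. Without NICD_mut 1 and NICD_wt 1 together, Gsta2 (-0.045), Cyp4f17 (-0.0037), Cyp27a1 (-0.010) and Ugt1a10 (-0.26) changed sign. Limma gave Gsto1 0.072 (0.073 with a pseudocount of 0.1) and Nfe2l2 0.0047. The cause was not tested. Precision is limited by 2 NICD_mut libraries, and for the scarcest members by counts under 20.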

Other observations

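The 2 NICD_mut libraries differed from each other for some members, beyond the muscle transcripts of NICD_mut 1. The CPM of NICD_mut 1 over NICD_mut 2 was 0.504 for Cyp1b1, 0.699 for Cyp4a31 and 0.720 for Cyp4f13, all called higher, and 1.60 for Cyp2j5, 1.73 for Gstp1, 2.11 for Gstt1 and 2.21 for Gsta2. With both libraries and the usual filter Gstt1, Gsta2 and Mgst1 were not called, whereas Gstt1 (lower) and Mgst1 (higher) were called without NICD_mut 1 and Gsta2 (higher) without NICD_mut 2.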
